A study of Danio rerio with 2 samples.

Results

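The genes described here are 9 genes tied to p53, a tumour suppressor transcription factor: mdm2, cdkn1a, ccng1, phlda3, baxa, bbc3, gadd45aa, casp8 and sesn1. They were chosen by gene symbol as known targets or effectors of p53, and all 9 were found among the 32057 genes of the count table, once each. RNA was sequenced from dissected hearts of zebrafish (Danio rerio) embryos at 96 hours post fertilisation (hpf). One library came from embryos of genotype foxc1a nju18, an allele of the forkhead transcription factor gene foxc1a, and the other from wild-type embryos of the TU strain. What the allele does to the protein, and how many hearts went into a library, is not stated in the labels. The design asked how cardiac gene expression differs between the foxc1a genotype and wild type.

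In cells under stress or with damaged DNA, p53 accumulates and switches on genes that halt the cell cycle, repair DNA or start apoptosis. Mdm2, itself a p53 target, marks p53 for degradation and so closes a feedback loop. In zebrafish embryos the pathway is known for its response to irradiation and for the apoptosis that many developmental mutants and injected reagents set off. Much of the control of p53 acts on the protein, by modification and degradation.

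With 1 library per genotype there is no spread between replicates to set a difference against, and genotypes were not tested against each other. CPM are read counts over the library total and a TMM factor, set to a common scale, and log2 ratios are of CPM with 1 CPM added, foxc1a nju18 minus TU. Ratios have nothing added, and their 95% counting intervals are exact (Clopper-Pearson) intervals that cover counting error only. In place of a test, a gene at 5 CPM or more in either library was called higher or lower when its log2 ratio reached 2-fold. In whole-heart RNA, fewer cells of a type and less RNA per cell cannot be told apart.

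The libraries held 17467109 reads (foxc1a nju18) and 20049851 reads (TU) counted to genes. Reads of foxc1a itself numbered 798 in the foxc1a nju18 library and 629 in the TU library. Scaled by TMM, foxc1a stood at 50.5 CPM in the foxc1a nju18 library, against 28.4 in the TU library. Its level in the foxc1a nju18 library was thus 1.78 times that in TU, higher but within 2-fold. Counting error alone put this between 1.60 and 1.98. Gene counts do not show the sequence of the allele, so these values do not check the labels. All 7 heart muscle markers with a row in the table were present in both libraries, and together they held 1.45% of foxc1a nju18 reads and 0.791% of TU reads. Markers of other tissues moved too. The 8 skeletal muscle markers held 0.399% of foxc1a nju18 reads and 0.125% of TU reads. Of these, mylpfa was under 5 CPM in both, with 4 reads in the foxc1a nju18 library and 0 in the TU library. The 7 retina and lens markers held 0.0274% of foxc1a nju18 reads and 0.290% of TU reads. The lens marker cryaa did not share this difference, with 26.7 CPM in the foxc1a nju18 library and 24.9 in the TU library. Neuron markers (8 genes) held 0.0130% of foxc1a nju18 reads and 0.0427% of TU reads, and red cell markers (7 genes) 0.0743% of foxc1a nju18 reads and 0.273% of TU reads. The 5 red cell markers at 5 CPM or more all had log2 ratios below 0. Under 5 CPM in both libraries, alas2 had 28 reads in the foxc1a nju18 library and 14 in the TU library, and gata1a 6 and 12. Gut and liver markers (7 genes) held 0.0877% of foxc1a nju18 reads and 0.0471% of TU reads. Of these 7, 6 had log2 ratios above 0. The exception, fabp6, had 4.62 CPM in the foxc1a nju18 library and 70.4 in the TU library (log2 ratio -3.67). Epidermis markers (6 genes) held 0.566% of foxc1a nju18 reads and 0.372% of TU reads. The epidermis sum followed cyt1 (4931 CPM in the foxc1a nju18 library and 1542 in the TU library), while 2 of the 3 markers at 5 CPM or more, krt4 and tp63, had log2 ratios below 0 (-0.45 and -0.54). Endocardium and endothelium markers (6 genes) held 0.0639% of foxc1a nju18 reads and 0.0628% of TU reads. Of these 6, 4 had log2 ratios above 0 and 2 below, from -0.61 (pecam1) to 0.65 (egfl7). Leukocyte markers (6 genes) held 0.00264% of foxc1a nju18 reads and 0.00441% of TU reads, and lyz was at 0 in both libraries and coro1a in the foxc1a nju18 library. Of the 3 leukocyte markers at 5 CPM or more, mpx and lcp1 had log2 ratios below 0 (-1.23 and -0.23) and marco above (0.71). The part of these tissues in the values of the p53 target genes was not tested.

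The p53 target genes did not move in 1 direction. ccng1 was higher in the foxc1a nju18 library by more than 2-fold, phlda3 was lower by more than 2-fold, and the other 7 lay within 2-fold. All 9 passed the 5 CPM filter. Thus 1 of the 9 was called higher, beside 9.61% of the 12259 genes at 5 CPM or more, and 1 of 9 was called lower, beside 11.1% of genes, so both shares lie near the background. The log2 ratio was above 0 for 4 members and below 0 for 5, and the median was -0.11, against 0.04 over all 12259 genes. Together the 9 genes held 0.0395% of foxc1a nju18 reads and 0.0413% of TU reads. None of the 9 was called in the authors' deposited table, where 4.24% of its 23256 genes were called up and 7.63% down, 11.9% together.

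**Figure D1:**
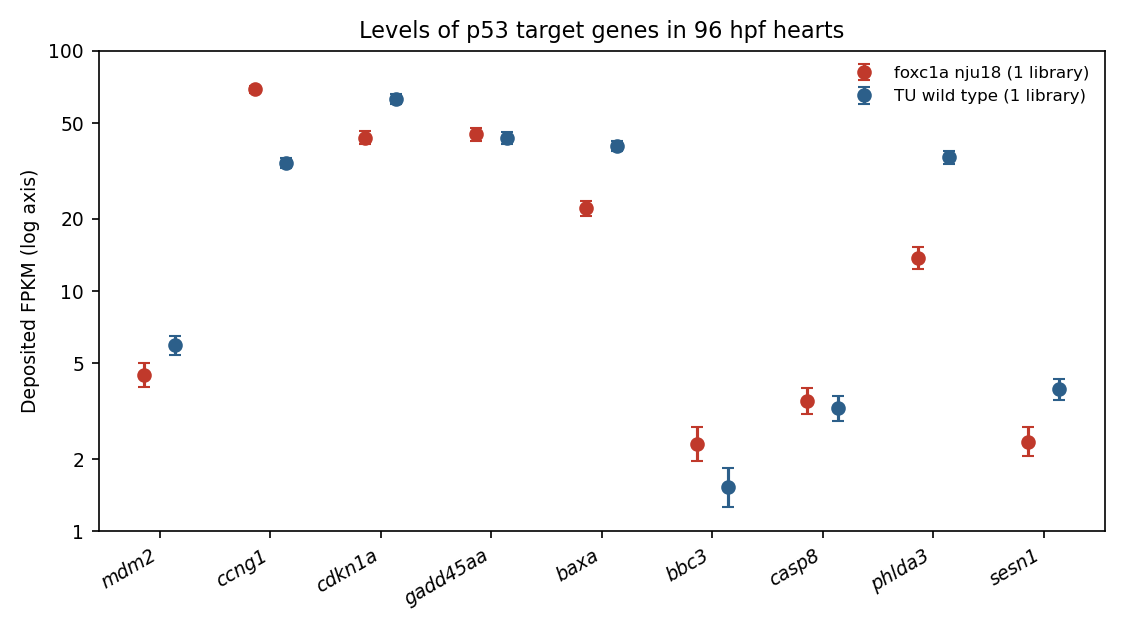
Deposited FPKM (log axis) of the 9 genes in the foxc1a nju18 library (red, left of each pair) and the TU library (blue, right), with 95% Poisson counting intervals as bars. ccng1 stands at 69.0 FPKM in the foxc1a nju18 library and 34.1 in the TU library, and phlda3 at 13.7 in the foxc1a nju18 library and 36.1 in the TU library.

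mdm2 and ccng1 act back on p53 itself. mdm2 (ENSDARG00000033443), the ubiquitin ligase gene that restrains p53, had 305 reads in the foxc1a nju18 library and 465 in the TU library, or 19.3 and 21.0 CPM. Its ratio of 0.921 had a counting interval of 0.795 to 1.07, so under TMM no difference between the libraries was detectable at this depth. On library totals alone (total-count scaling) the mdm2 ratio was 0.753, with an interval of 0.650 to 0.872 that lies below 1.

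ccng1 (ENSDARG00000076667) encodes cyclin G1, which in mammals brings a phosphatase to Mdm2 and is a long-known p53 target. It had 2919 reads in the foxc1a nju18 library and 1656 in the TU library, or 185 and 74.7 CPM. The ratio of 2.47 (counting interval 2.33 to 2.63) was the largest of the 9, and its log2 ratio of 1.30 was number 683 from the top among 12259 genes. With total-count scaling the ccng1 ratio was 2.02 (1.90 to 2.15), so its interval reached below 2. In the authors' deposited table ccng1 had a log2 fold change of 1.27 with an FDR of 0.355, which was not a call.

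cdkn1a and gadd45aa, genes of cell cycle arrest, lay within 2-fold. cdkn1a (ENSDARG00000076554), the gene of the kinase inhibitor p21 and a classic marker of p53 activity, had 926 reads in the foxc1a nju18 library and 1537 in the TU library. These were 58.6 and 69.3 CPM. The cdkn1a ratio was 0.846 (counting interval 0.779 to 0.918), with a log2 ratio of -0.24. cdkn1a was thus somewhat lower in the foxc1a nju18 library, opposite to ccng1. Set against pcna, which encodes the replication clamp that p21 binds, cdkn1a was at 0.298 of the pcna level per length in the foxc1a nju18 library and 0.300 in the TU library, a quotient of 0.995 (0.907 to 1.09).

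gadd45aa (ENSDARG00000043581), 1 of the growth arrest and DNA damage genes, had 982 reads in the foxc1a nju18 library and 1090 in the TU library, or 62.2 and 49.2 CPM. Its ratio was 1.26 (counting interval 1.16 to 1.38) with TMM scaling and 1.03 (0.948 to 1.13) with total-count scaling, so the difference was detectable only under the first. Its paralog gadd45ab had 23.6 CPM in the foxc1a nju18 library and 29.3 in the TU library, a ratio of 0.806 (0.708 to 0.917). With TMM scaling the paralogs thus lay on opposite sides of 1, each within 2-fold. With total-count scaling gadd45ab was at 0.659, while the interval of gadd45aa held 1. Per length, gadd45aa stood at 2.63 times gadd45ab in the foxc1a nju18 library and 1.68 times in the TU library, a quotient of 1.57 (1.34 to 1.84).

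**Figure D2:**
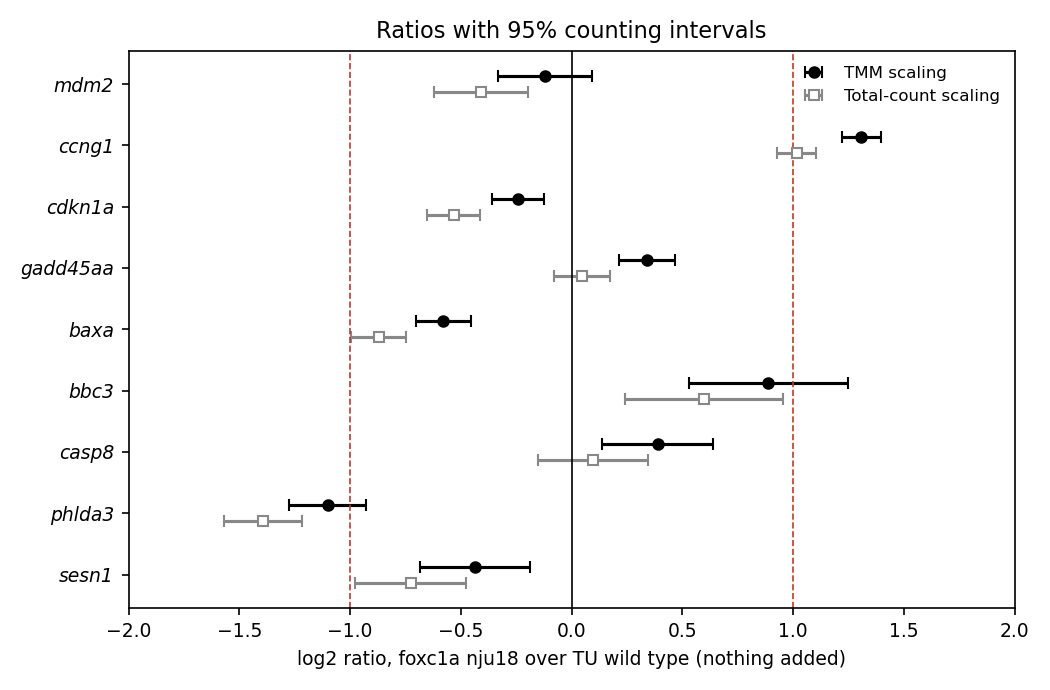
Log2 ratios of foxc1a nju18 over TU (nothing added) for the 9 genes, with TMM scaling (black circles) and total-count scaling (grey squares), and 95% counting intervals as bars. Dashed lines mark 2-fold. ccng1 lies beyond 2-fold on the higher side and phlda3 on the lower side under both scalings, and all genes shift by -0.29 between scalings.

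Among the genes that carry out apoptosis, baxa was lower in the foxc1a nju18 library and bbc3 and casp8 were higher, each within 2-fold. baxa (ENSDARG00000020623) encodes the Bax protein that permeabilises the outer mitochondrial membrane, and had 794 reads in the foxc1a nju18 library and 1666 in the TU library, or 50.3 and 75.1 CPM. The baxa ratio was 0.669 (counting interval 0.614 to 0.729) and its log2 ratio -0.57. Its paralog baxb had 7.28 CPM in the foxc1a nju18 library and 6.45 in the TU library, a ratio of 1.13 whose interval of 0.876 to 1.45 held 1 (0.923 with total-count scaling). Per length, baxa stood at 4.26 times baxb in the foxc1a nju18 library and 7.18 times in the TU library, a quotient of 0.593 (0.454 to 0.776).

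bbc3 (ENSDARG00000069282) encodes Puma, a BH3-only protein through which p53 triggers apoptosis in irradiated zebrafish embryos. It had the fewest reads of the 9, with 154 in the foxc1a nju18 library and 117 in the TU library, or 9.75 and 5.28 CPM. The bbc3 ratio was 1.85, and its interval of 1.44 to 2.37 was the widest of the 9. The log2 ratio with 1 CPM added was 0.78, and with 0.25 CPM added it was 0.86. With total-count scaling the bbc3 ratio was 1.51 (1.18 to 1.94), so the direction was the same and the size was less certain than for ccng1.

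casp8 (ENSDARG00000058325), the initiator caspase gene of the death receptor pathway, had 261 reads in the foxc1a nju18 library and 280 in the TU library, or 16.5 and 12.6 CPM. The casp8 ratio of 1.31 (counting interval 1.101 to 1.56) became 1.07 (0.900 to 1.27) with total-count scaling, where no difference was detectable. The gene model of casp8 overlaps that of asic4b in the RefSeq table of assembly GRCz12tu. asic4b had 8 reads in the foxc1a nju18 library and 4 in the TU library. Per length, casp8 stood at 2.47 times casp3a, the gene of an executioner caspase, in the foxc1a nju18 library and at 1.07 times in the TU library. That quotient was 2.31 (1.66 to 3.22), with casp3a at 4.69 CPM in the foxc1a nju18 library and 8.25 in the TU library.

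phlda3 (ENSDARG00000037804) encodes a small pleckstrin homology protein that, in mammals, competes with the survival kinase Akt for membrane lipids. It had 357 reads in the foxc1a nju18 library and 1075 in the TU library, or 22.6 and 48.5 CPM. The ratio was 0.466 (counting interval 0.413 to 0.526) and the log2 ratio -1.07, with 9.89% of genes lower. phlda3 lies just past the 2-fold rule, and its interval reached above 0.5. With total-count scaling the ratio was 0.381 (0.337 to 0.430). In the authors' deposited table its log2 fold change was -1.14 with an FDR of 0.484, not a call.

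sesn1 (ENSDARG00000020693) encodes a sestrin, a stress protein that restrains growth signalling through mTORC1. It had 206 reads in the foxc1a nju18 library and 391 in the TU library, or 13.0 and 17.6 CPM. Its ratio was 0.740 (counting interval 0.622 to 0.878). Its model overlaps armc2 and si:ch211-51a19.5 in the same RefSeq table. armc2 had 7 reads in the foxc1a nju18 library and 19 in the TU library, and si:ch211-51a19.5 had 30 in the foxc1a nju18 library and 19 in the TU library.

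The 9 genes differed more in level among themselves than between the libraries. In deposited FPKM, which are per kilobase of gene model and so allow genes to be compared, they ran from 69.0 (ccng1) to 2.31 (bbc3) in the foxc1a nju18 library and from 62.9 (cdkn1a) to 1.53 (bbc3) in the TU library. The order in the foxc1a nju18 library was ccng1, gadd45aa (44.9 FPKM), cdkn1a (43.5), baxa (22.1), phlda3 (13.7), mdm2 (4.48), casp8 (3.49), sesn1 (2.36) and bbc3. Counting intervals of gadd45aa and cdkn1a overlapped there, as did those of sesn1 and bbc3. The order in the TU library was cdkn1a, gadd45aa (43.4 FPKM), baxa (40.3), phlda3 (36.1), ccng1 (34.1), mdm2 (5.96), sesn1 (3.91), casp8 (3.26) and bbc3. In the TU library the intervals of gadd45aa and baxa overlapped, as did those of phlda3 and ccng1, and of sesn1 and casp8. ccng1 thus led in the foxc1a nju18 library and was number 5 in the TU library, while mdm2 was number 6 and bbc3 number 9 in both.

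**Figure D3:**
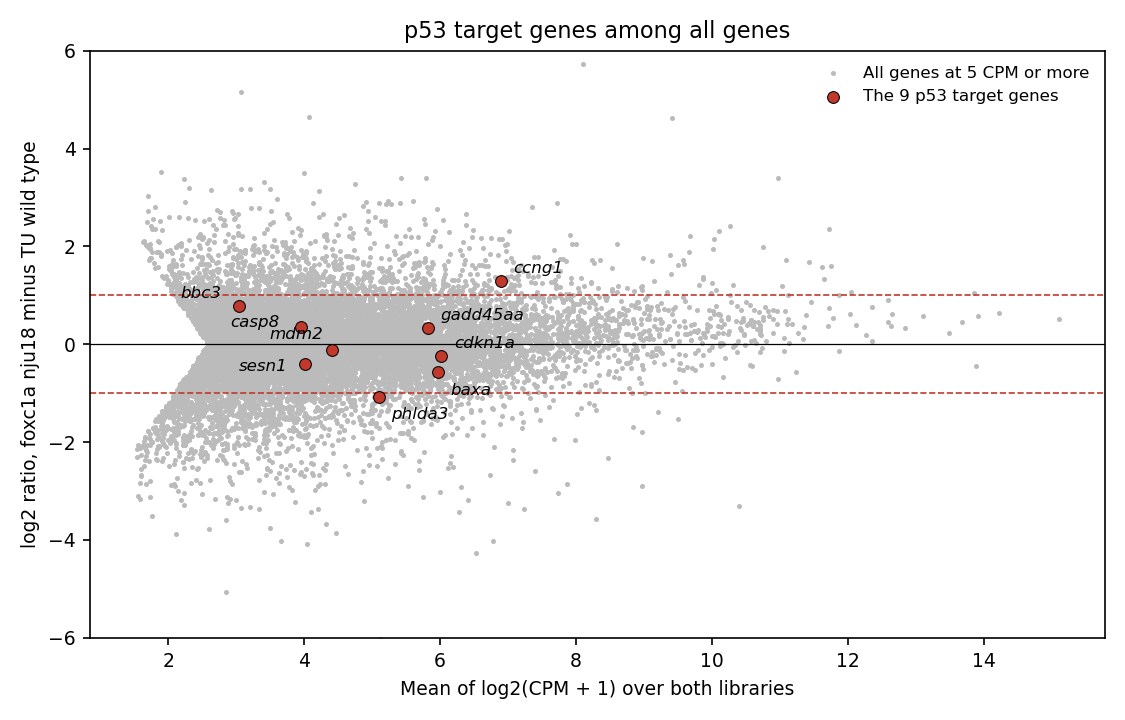
Each grey point is 1 of 12259 genes at 5 CPM or more, by mean log2(CPM + 1) over both libraries and log2 ratio of foxc1a nju18 minus TU, and red points are the 9 genes. Dashed lines mark 2-fold, beyond which only ccng1 (1.30) and phlda3 (-1.07) lie among the red points.

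Counting error was small at this depth. Counting intervals were above 1 over their whole length for 4 of the 9 genes (ccng1, bbc3, gadd45aa and casp8) and below 1 for 4 (cdkn1a, phlda3, baxa and sesn1). Over all genes at 5 CPM or more these shares were 41.8% above and 37.5% below, or 79.3% together, so an interval without 1 was the usual case between these libraries. With total-count scaling, gadd45aa and casp8 had intervals that held 1 and mdm2 had one below 1. The authors' deposited log2 fold changes for the other 7 genes ran from -0.62 (baxa) to 0.85 (bbc3), with FDR from 0.677 (bbc3) to 0.962 (cdkn1a).

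The wider pathway was described from 6 lists holding 98 further genes, of which 92 had a row and 71 passed the filter. Of these 71, 11 (15.5%) were higher by 2-fold or more and 1 (1.41%) lower, beside 9.61% and 11.1% of all genes at 5 CPM or more. The median log2 ratio was 0.36. The split moved with the scaling, and so did that of all genes. With total-count scaling, 2 were higher and 7 lower, beside 5.69% and 17.6% of all genes. The median was then 0.08 where that of all genes was -0.26. Of the 92 genes with a row, the authors' deposited table called 1 up, fdxr, and 1 down, rprma. A further 87 were not called, and the rest were absent from it. Of all genes in that table, 4.24% were called up and 7.63% down. rprma, an arrest gene, had 0 reads in the foxc1a nju18 library and 12 in the TU library and did not pass the filter. Of the 11 genes higher by 2-fold or more, fdxr, badb and rrm2b passed that filter only through the foxc1a nju18 library. In the TU library these genes had 4.06, 3.02 and 2.98 CPM.

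Among the p53 family and its regulators, 3 of 11 measured genes (27.3%), mdm2 included, were higher and 0 lower (median -0.01). Of all genes at 5 CPM or more, 9.61% were higher and 11.1% lower. With total-count scaling 0 genes of the list were higher and 1 lower, beside 5.69% and 17.6% of all genes. atr, the kinase of stalled replication forks, had 12.4 CPM in the foxc1a nju18 library and 5.19 in the TU library, a ratio of 2.38 (counting interval 1.88 to 3.02). chek1, which acts downstream of atr, had 12.2 CPM in the foxc1a nju18 library and 5.41 in the TU library, and tp53bp1, which marks double-strand breaks, had 73.4 in the foxc1a nju18 library and 34.8 in the TU library. These 3 are the genes called higher, and with total-count scaling their ratios were 1.72 (tp53bp1) to 1.95 (atr), under 2-fold. ppm1da, a phosphatase gene of the p53 feedback loop, had 9.25 CPM in the foxc1a nju18 library and 19.4 in the TU library, a log2 ratio of -0.996, just short of the 2-fold rule, which it passed with total-count scaling. The second restraint on p53, mdm4, was level at 61.2 CPM in the foxc1a nju18 library and 61.9 in the TU library (ratio 0.990, 0.911 to 1.08). tp63, a family member used in epidermis, had 18.2 CPM in the foxc1a nju18 library and 26.8 in the TU library, and tp73 had 14 reads in the foxc1a nju18 library and 26 in the TU library.

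Of 12 measured arrest genes, ccng1 was the only one called (8.33% higher and 0% lower, beside 9.61% and 11.1% of all genes). The 9 without cdkn1a, ccng1 and gadd45aa had a median of -0.13. plk3, a stress kinase gene, had 299 CPM in the foxc1a nju18 library and 165 in the TU library (log2 ratio 0.86). The gadd45 family went both ways. gadd45ga had 8.36 CPM in the foxc1a nju18 library and 4.73 in the TU library, and gadd45ba had 270 in the foxc1a nju18 library and 178 in the TU library. gadd45gb.1 had 4.56 CPM in the foxc1a nju18 library and 7.40 in the TU library. Each of these lay within 2-fold.

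Of 26 measured genes of apoptosis, 2 (7.69%) were higher and 2 (7.69%) lower, beside 9.61% and 11.1% of all genes. The median was 0.00 (with total-count scaling 0 higher, 5 lower and a median of -0.28, beside 5.69%, 17.6% and -0.26 over all genes). The higher ones were diabloa, whose product blocks the inhibitors of caspases, and badb, a BH3-only gene. diabloa had 20.7 CPM in the foxc1a nju18 library and 8.66 in the TU library. badb had 7.28 CPM in the foxc1a nju18 library and 3.02 in the TU library, and passed the 5 CPM filter only through the former. tp53inp1, a p53 target that promotes cell death, had 6.21 CPM in the foxc1a nju18 library and 14.4 in the TU library and was called lower together with phlda3. fadd, the adaptor between death receptors and caspase 8, had 4.81 CPM in the foxc1a nju18 library and 10.2 in the TU library (log2 ratio -0.94).

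Metabolic targets held the largest log2 ratio among the measured pathway genes. fdxr, a mitochondrial reductase gene that is a p53 target in human cells, had 267 reads in the foxc1a nju18 library and 90 in the TU library, or 16.9 and 4.06 CPM. Its ratio was 4.17 (counting interval 3.27 to 5.35), and in the authors' deposited table it had a log2 fold change of 2.02 with an FDR of 0.000939. Of 8 measured metabolic genes 2 (25%) were higher, fdxr and sesn3, and 0 lower (median 0.61), beside 9.61% and 11.1% of all genes. Of these 2, fdxr passed the 5 CPM filter only through the foxc1a nju18 library. With total-count scaling fdxr was the 1 higher gene, at a ratio of 3.40, and sesn2 the 1 lower (5.69% and 17.6% of all genes). The sestrins were split, with sesn3 at 69.5 CPM in the foxc1a nju18 library and 30.7 in the TU library, sesn2 at 11.3 in the foxc1a nju18 library and 21.9 in the TU library, and sesn1 also lower. tigarb, which lowers glycolytic flux, had 10.5 CPM in the foxc1a nju18 library and 6.13 in the TU library.

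Of 7 measured repair genes 1 (14.3%) was higher and 0 lower (median 0.21), beside 9.61% and 11.1% of all genes. The 1 higher gene, rrm2b, passed the 5 CPM filter only through the foxc1a nju18 library. rrm2b, the p53-induced subunit of ribonucleotide reductase, had 7.66 CPM in the foxc1a nju18 library and 2.98 in the TU library, a ratio of 2.57 (counting interval 1.89 to 3.53). With total-count scaling the rrm2b ratio was 2.10 (1.55 to 2.885), but with 1 CPM added rrm2b was not called. The list then had 0 higher and 1 lower, ddb2, beside 5.69% and 17.6% of all genes. The replication counterpart of rrm2b, rrm2, had 23.3 CPM in the foxc1a nju18 library and 15.3 in the TU library. The damage recognition genes ddb2 and xpc went opposite ways. ddb2 had 6.84 CPM in the foxc1a nju18 library and 12.5 in the TU library, and xpc had 29.2 in the foxc1a nju18 library and 21.0 in the TU library. pcna had 233 CPM in the foxc1a nju18 library and 274 in the TU library.

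Of 16 measured cell cycle genes that p53 is known to hold down through p21, 3 (18.8%) were higher by 2-fold or more and 0 lower. Of all genes, 9.61% were higher in the foxc1a nju18 library and 11.1% lower. The log2 ratio was above 0 for 15 of the 16 cell cycle genes, and their median was 0.58. Over all genes at 5 CPM or more 52.4% had a log2 ratio above 0. With total-count scaling 14 of the 16 were above 0, the median was 0.30, and aurka was the 1 called higher. Over all genes the median was then -0.26, with 5.69% higher and 17.6% lower. aurka, a mitotic kinase gene, had 48.3 CPM in the foxc1a nju18 library and 16.7 in the TU library (log2 ratio 1.47). cdc20, an activator of the anaphase-promoting complex, had 30.1 CPM in the foxc1a nju18 library and 13.8 in the TU library, and the replication helicase gene mcm2 had 113 in the foxc1a nju18 library and 53.9 in the TU library. ccnb2, a mitotic cyclin gene, stood at 14.8 CPM in the foxc1a nju18 library and 7.22 in the TU library (log2 ratio 0.94).

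**Figure D4:**
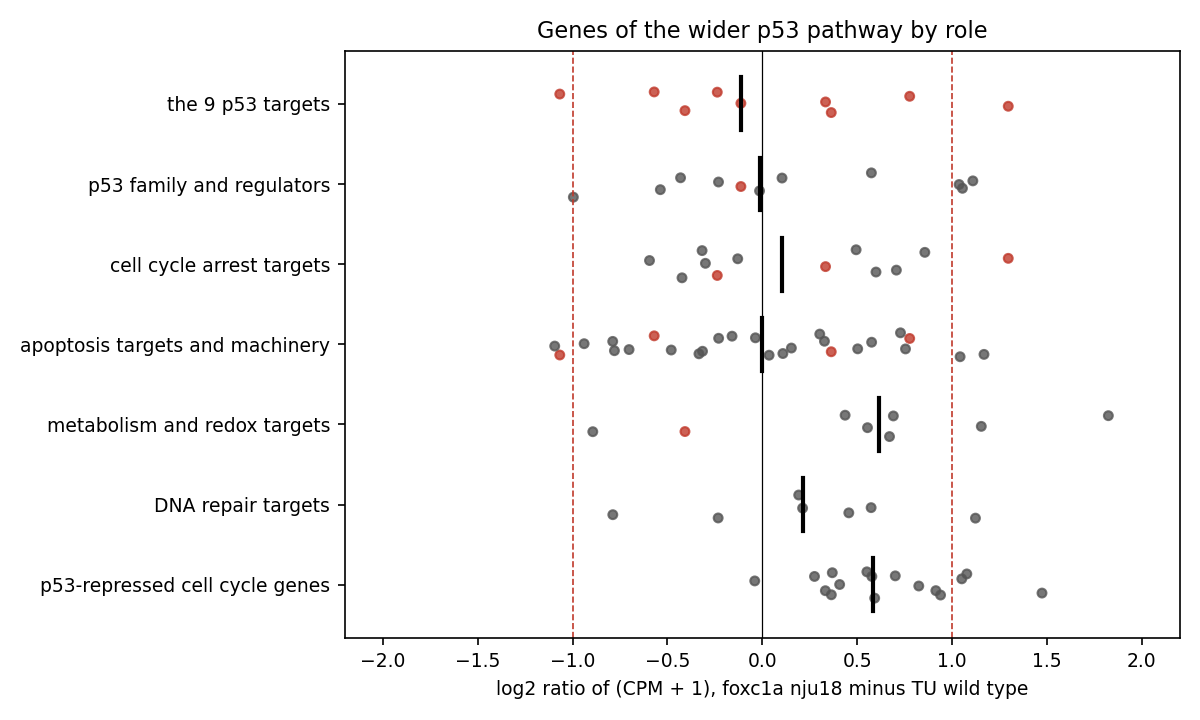
Log2 ratios of (CPM + 1), foxc1a nju18 minus TU, of every gene at 5 CPM or more in each list (grey, with the 9 genes in red), with the list's median as a black bar and 2-fold as dashed lines. The 9 genes spread from -1.07 to 1.30 around a median of -0.11, and 15 of 16 cell cycle genes lie above 0.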

How the data were processed

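RNA of dissected, frozen hearts was sequenced, per the labels' protocols, as 1 library per genotype, and groups follow the genotype label. Tools listed in the submitters' processing notes are featureCounts, HISAT2, Trimmomatic and bcl2fastq, without version or role, and the build is GRCz11. Strand and multi-mapping settings are not stated there, which leaves overlapping genes and paralogs uncertain. The authors deposited raw counts per gene. The deposited FPKM equalled count over total and a fixed gene length (to within 1%, for 100% of genes that have reads in both libraries). The authors' comparison table, named for EBSeq, holds a signal per library (counts divided by size factors of 0.854 for foxc1a nju18 and 1.17 for TU). It also gives the authors' fold ratio, log2 fold change and FDR, read here as a q-value. How EBSeq was run without replicates is not stated in the labels or headers.

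Counts were scaled with TMM factors of 0.904 (foxc1a nju18) and 1.11 (TU) from edgeR 4.0.16 in R 4.3.3. Intervals (95%) used scipy 1.17.1 in Python 3.11.15. No molecular identifiers were named, so reads are not independent molecules and intervals cover counting error only. RefSeq names (assembly GRCz12tu) matched all 9 genes, and a planned search of sequences for p53 sites was not run. Members, lists and tests were chosen with earlier results of these data known. Named genes are every member, in each list the 4 other measured genes farthest from 0 in log2 ratio, and tp63, tp73, mdm4, baxb, gadd45ab and pcna, with casp3a in a within-library ratio. Some genes of the lists are not reported here by name. rprma was named after its values were seen. Of the list symbols, 6 pathway genes (aen, baka, bmf1, casp6a, casp8l1 and faddb) and the marker vmhc matched no row. In simulated counts for foxc1a nju18 against TU (11571 genes, counting error only), 100% of genes changed 4-fold were recovered in each direction and 0 of 11371 unchanged genes passed. The changed genes were drawn only from genes well above the 5 CPM filter, and both simulated libraries shared 1 composition. Recovery near the filter or near 2-fold was thus not checked.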

Additional observations from a re-analysis of the deposited data

How the results depend on the processing

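The direction of each of the 9 genes held under every scaling. An added value or a filter cannot change a direction, so those settings do not check it. With total-count scaling the log2 ratios of gadd45aa (0.0476) and casp8 (0.0913) were small. Their counting intervals then held 1, as that of mdm2 did with TMM. ccng1 stayed above 2-fold except with the deposited FPKM (log2 ratio 0.996), and phlda3 stayed below except with 5 CPM added (-0.95). bbc3, casp8 and sesn1 have no value with the 20 CPM filter. The members' median moved from -0.11 to -0.39 with total-count scaling, -0.37 with a total that omits genes above 1% of a library and -0.34 with the deposited FPKM. Members called higher numbered 0 with the FPKM, 2 with a 1.5-fold rule and 0 with a 4-fold rule, and members called lower 0 with 5 CPM added and 0 with the 4-fold rule. The wider pathway had 11 genes higher and 1 lower in the main comparison. The counts higher and lower were 2 and 7 with total-count scaling, 2 and 8 with the total that omits the largest genes, and 2 and 5 with FPKM. The shares of all genes were 5.69% and 17.6%, 6.05% and 17.5%, and 4.48% and 12.6% under these 3. The wider pathway's median was 0.0764, 0.0725 and 0.0746 under the same 3, against 0.36 in the main comparison. The median of all genes was -0.26, -0.24 and -0.21 under these 3, against 0.04 in the main comparison. Other settings gave counts of 12 and 3 with 0.25 CPM added, 3 and 0 with 5 CPM added and 11 and 2 with no filter. They gave 6 and 0 with the 20 CPM filter, 23 and 9 with the 1.5-fold rule and 0 and 0 with the 4-fold rule. With 0.25 CPM added, 10.8% of all genes were higher and 12.5% lower, and with 5 CPM added 5.87% and 5.39%. These shares were 5.91% and 8.35% with no filter and 10.5% and 7.69% with the 20 CPM filter. The 1.5-fold rule gave 22.3% and 21.5% of all genes, and the 4-fold rule 1.45% and 2.08%. From TMM to total-count scaling, every log2 ratio with nothing added shifts by -0.29. Why the scalings differ was not tested. The authors' calls among the 9 genes numbered 0 at an FDR of 0.05, so the stricter FDR of 0.01 could not give another result. Of the other values, 143 were the same and 102 moved. A count moved when it changed to or from 0 or by more than 1.5 times. A gene's log2 ratio moved when it left its counting interval, and a median when it changed by more than 0.162. The called members ccng1 and phlda3 kept their sign. Some list medians did not, such as that of the arrest genes (0.10, and -0.18 with total-count scaling). No paired analysis was possible because there is 1 library per genotype. For the same reason no library could be left out.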

Other observations

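Of 6 genes of the BCL-2 family that hold back Bax, chosen here after their values were seen, 5 had a ratio below 1 and mcl1a a ratio above 1. Over all genes at 5 CPM or more, 47.6% had a log2 ratio below 0. Because the 6 were picked in this way, their count is no measure of the family. bcl2l1, the Bcl-xL gene, had 37.8 CPM in the foxc1a nju18 library and 65.6 in the TU library, a ratio of 0.576 (counting interval 0.523 to 0.634). baxa was lower too, but by less (ratio 0.669). Per length, baxa stood at 1.42 times bcl2l1 in the foxc1a nju18 library and at 1.22 times in the TU library, a quotient of 1.16 (exact conditional interval 1.02 to 1.32). The mcl1 paralogs differed in direction with TMM scaling, mcl1a at 720 CPM in the foxc1a nju18 library and 583 in the TU library, and mcl1b at 156 in the foxc1a nju18 library and 219 in the TU library. bcl2l10 had 122 CPM in the foxc1a nju18 library and 137 in the TU library, and bcl2b had 3.86 in the foxc1a nju18 library and 5.05 in the TU library (ratio 0.765, 0.550 to 1.05). bcl2a, under 5 CPM in both, had 21 reads in the foxc1a nju18 library and 92 in the TU library (ratio 0.321, 0.189 to 0.519). With total-count scaling the mcl1a ratio was 1.01 (0.983 to 1.03), against 1.23 with TMM.

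Downstream of Bax, apaf1, the scaffold of the apoptosome, had 28.7 CPM in the foxc1a nju18 library and 16.6 in the TU library (ratio 1.73, 1.503 to 1.99). casp9, which it activates, was level at 11.9 CPM in the foxc1a nju18 library and 11.6 in the TU library (0.847 to 1.25). Among executioner caspase genes, casp3b had 25.6 CPM in the foxc1a nju18 library and 23.7 in the TU library. casp3a had 4.69 CPM in the foxc1a nju18 library and 8.25 in the TU library. xiap, an inhibitor of these caspases, had 6.08 CPM in the foxc1a nju18 library and 11.2 in the TU library. Transcript levels do not measure caspase activity or cell death.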
